A study of Mus musculus with 6 samples.

Results

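The 9 genes described here encode the contractile apparatus of smooth muscle, and they were measured in macrophages sorted from atherosclerotic aorta. They were chosen by symbol: Acta2, Myh11, Tagln, Cnn1, Mylk, Myl9, Tpm1, Tpm2 and Cald1. All 9 were found among the 41388 Ensembl genes of the deposited tables. The samples were 3 libraries of foamy macrophages, which were CD64+CD11b+ cells that stained strongly with a BODIPY dye for neutral lipid and scattered much light sideways, and 3 libraries of non-foamy macrophages, which were CD64+CD11b+ cells low in both measures. Every mouse was ApoE -/- on C57BL/6, a genotype prone to arterial plaques, and had eaten a Western diet (WD in the series design) for 28 weeks. The design names 6 mice, and how they were divided among the 6 libraries is not given, so the p-values reflect spread between libraries that may be technical. No library of whole aorta, of sorted smooth muscle cells or of ApoE-sufficient mice was analysed here. The cells are labelled as intimal, and the adventitia was removed before the rest of the aortic wall was digested and sorted. Smooth muscle cells of the aorta lie mainly in its media, and a separation of media from intima is not described in the labels.

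In a smooth muscle cell, alpha-actin (Acta2) and smooth muscle myosin heavy chain (Myh11) slide past each other, and the myosin is switched on when Mylk, the myosin light chain kinase, phosphorylates the regulatory light chain Myl9. Tropomyosins (Tpm1, Tpm2), caldesmon (Cald1), calponin (Cnn1) and transgelin (Tagln, also called SM22 alpha) bind the actin filament and regulate or stabilise it. Serum response factor and its co-activator myocardin switch these genes on through a short DNA element, the CArG box. Acta2, Myh11, Tagln and Cnn1 are widely used to mark smooth muscle cells. Tpm1, Mylk, Myl9 and Cald1 are also expressed in many non-muscle cells.

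Acta2 and Myl9 had CArG boxes just ahead of their start sites. Both also had their 2 highest levels in foamy replicate 3 and non-foamy replicate 1 and their lowest in non-foamy replicate 2. That order was noticed in the values, and a link between it and the element was not tested. Tagln had the same 2 highest libraries, and its promoter could not be searched. Their 200 bases upstream of the RefSeq start are shown because, of the promoter windows that could be searched, theirs held the element. Capitals mark a CArG box, exact or with 1 base of its A/T core replaced by G or C. The Acta2 stretch is chr19:34255374-34255573 on the minus strand and the Myl9 stretch is chr2:156775264-156775463 on the plus strand, both from RefSeq on GRCm38.p6 and written 5′ to 3′.
Acta2: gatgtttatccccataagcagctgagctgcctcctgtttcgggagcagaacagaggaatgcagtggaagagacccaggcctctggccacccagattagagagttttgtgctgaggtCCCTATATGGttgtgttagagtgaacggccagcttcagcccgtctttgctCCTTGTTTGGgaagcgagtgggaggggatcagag
Myl9: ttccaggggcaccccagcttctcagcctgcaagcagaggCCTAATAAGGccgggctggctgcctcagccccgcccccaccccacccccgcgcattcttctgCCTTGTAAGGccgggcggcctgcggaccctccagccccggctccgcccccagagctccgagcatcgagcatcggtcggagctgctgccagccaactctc

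In Acta2 the elements began 84 and 34 bases upstream of the start, and each had 1 core base changed. In Myl9 they began 161 bases upstream, with an exact match, and 99 bases upstream, with 1 core base changed. The CArG box reads the same on both strands, so a match on one is a match on the other, and the matches did not overlap. Of 32851 RefSeq windows of 300 bases (250 before to 50 after a start), 1.63% held an exact CArG box, 9.98% held one that was exact or had 1 core base changed, and 0.822% held at least 2 of these. The table had windows for 7 members, with 8 windows in all because Cald1 had 2. No match was found in the other 6 windows, those of Cald1, Cnn1, Mylk, Tpm1 and Tpm2, which says only that these letters are not in those windows. Tagln and Myh11 were not in the table.

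None of the members tested passed the threshold for a difference between foamy and non-foamy libraries. Group means of Acta2, Tagln, Myl9 and Mylk lay between 1.01 and 7.01 counts per 1e+06 counted reads (CPM), with large differences between libraries of one gate. Tpm1 had the highest mean in both gates and the lowest gene-wise variation of the members tested. Of 11303 genes tested with edgeR, 5.41% passed a Benjamini-Hochberg adjusted p of 0.05, 2.50% higher and 2.90% lower in foamy libraries, against 0 of the 7 members that had enough reads to be tested. At an unadjusted p below 0.05 there was 1 of the 7, Tpm1, where 18.7% of all tested genes lay below it. DESeq2 called 10.3% of the 13805 genes for which it gave an adjusted p, and 0 of the 9 members. In bulk libraries like these, fewer cells of a type and less RNA per cell cannot be told apart.

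Depth was 18592421 to 24279802 reads counted in genes in foamy and 15628627 to 24619075 in non-foamy libraries, so that 3 reads correspond to between 0.122 and 0.192 CPM. This floor, like the intervals given for counts below, covers counting error only, since amplified reads are not independent molecules and the labels name no molecular identifiers. Genes with at least 1 read numbered 16082, 17757 and 15595 in foamy and 24701, 20538 and 19380 in non-foamy replicates 1 to 3. Each foamy library thus had fewer than each non-foamy one. Non-foamy replicate 1 had the most although its depth, 15628627 counted reads, was the lowest of all libraries. Non-foamy replicate 3 stood apart through genes of cartilage and bone matrix: Ibsp, bone sialoprotein, had 17714 reads there and 4 to 8 reads in every other library. The cartilage genes Col2a1 and Cnmd had 590 and 561 reads there and at most 13 elsewhere. Without that replicate, edgeR called 0 of 6 members tested. Macrophage markers were high in all 6 libraries, at a summed 53372 to 58136 CPM over foamy and 35640 to 44470 CPM over non-foamy libraries, and none of the 10 was at 0. Lyz2, the highest of them, was at 30660, 32364 and 30716 CPM in foamy and 12708, 17769 and 16273 CPM in non-foamy libraries. With edgeR, 3 of the 10 were called higher and 4 lower in foamy libraries, so the sums do not speak for each marker.

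Acta2, the actin of the smooth muscle thin filament, had 41, 49 and 345 reads in the foamy libraries and 245, 13 and 60 reads in the non-foamy libraries, here and below in the order of replicates 1 to 3. In deposited CPM these were 1.69, 2.64 and 16.7 in foamy and 15.7, 0.771 and 2.44 in non-foamy libraries. One library of each gate, foamy replicate 3 and non-foamy replicate 1, lay far above the other 4, and the groups overlapped. Mean levels were 7.01 ± 8.41 CPM over the foamy and 6.29 ± 8.17 CPM over the non-foamy libraries (SD, n = 3 each). The log2 fold change, foamy over non-foamy, was 0.51 (SE 1.04, 95% interval -1.77 to 2.79, edgeR adjusted p = 0.86). It was -1.21 without foamy replicate 3 and 2.31 without non-foamy replicate 1, so the sign of this difference rested on single libraries. It was also -0.0036 without non-foamy replicate 2, and 0.16 without non-foamy replicate 3 or when scaled by total counts alone.

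**Figure D1:**
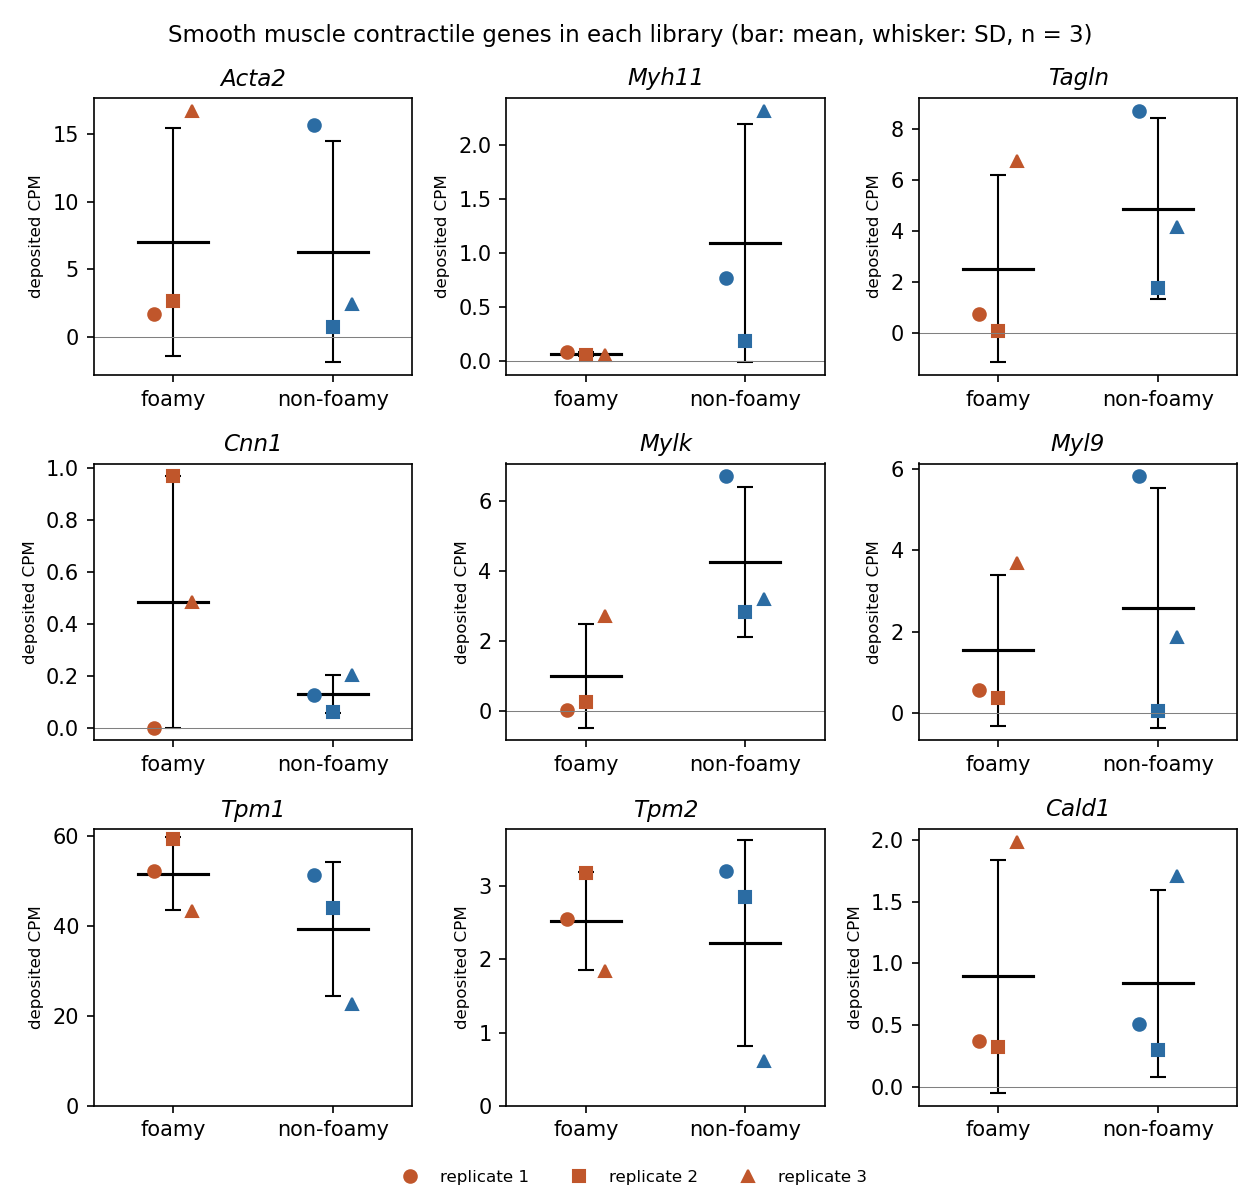
Deposited CPM (vertical axis, linear, a separate scale for each gene) of the 9 members in 3 foamy (orange, left) and 3 non-foamy (blue, right) libraries, with marker shape for the replicate number, a bar for the mean and a whisker for the SD. In Acta2, foamy replicate 3 (16.7 CPM) and non-foamy replicate 1 (15.7 CPM) stand far above the rest, while Tpm1 lies between 22.7 and 59.4 CPM in every library.

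Tagln, an actin-binding protein of differentiated smooth muscle, had 18, 2 and 139 reads in foamy and 136, 30 and 102 reads in non-foamy libraries. The same foamy replicate 3 and non-foamy replicate 1 were highest, with non-foamy replicate 3 next. Mean levels were 2.53 ± 3.66 CPM over the foamy and 4.87 ± 3.52 CPM over the non-foamy libraries (log2 fold change -0.62 ± 1.13 SE, 95% interval -3.10 to 1.86, adjusted p = 0.85 by edgeR). That value was -3.13 without foamy replicate 3 and -0.017 without non-foamy replicate 1, and the gene was not called in either case. It was also -0.18 and -0.05 without foamy replicates 1 and 2, -1.01 without non-foamy replicate 2 and, scaled by total counts alone, -0.94.

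Cald1, caldesmon, was at 9, 6 and 41 reads in foamy and 8, 5 and 42 reads in non-foamy libraries. Replicate 3 of each gate was the highest, and the means nearly coincided at 0.89 ± 0.95 CPM over foamy and 0.84 ± 0.76 CPM over non-foamy libraries (log2 fold change 0.32 with an SE of 1.16, adjusted p = 0.93 by edgeR). Its log2 fold change ran from -0.08 without non-foamy replicate 2 to 0.73 without foamy replicate 2.

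Cnn1, calponin 1, had 0, 18 and 10 reads in foamy and 2, 1 and 5 reads in non-foamy libraries, too few for the filter on low counts. The 0 in foamy replicate 1 allows a level of up to 0.124 CPM. All 3 non-foamy libraries lay between the lowest and the highest foamy library. A fit without the filter gave a log2 fold change of 2.09 (SE 1.68, edgeR adjusted p = 0.56).

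Myh11, the myosin heavy chain found almost solely in smooth muscle, had 2, 1 and 1 reads in foamy and 12, 3 and 57 reads in non-foamy libraries. The groups did not overlap. Over all genes tested the deposited CPM of the groups were apart in 28.0%, 6.68% with foamy and 21.3% with non-foamy libraries higher, and the TMM-normalized CPM in 25.7%, 12.4% with foamy and 13.3% with non-foamy libraries higher. For Myh11 each foamy library and non-foamy replicate 2 were at or under 3 reads, and non-foamy replicate 3 held 57 of the 72 non-foamy reads. Summed over libraries and set against depth, the foamy level was 0.050 of the non-foamy level, with an exact 95% counting interval of 0.0133 to 0.134 that leaves out the spread between libraries. Myh11 failed the filter on low counts. Without that filter its log2 fold change was -3.72 (SE 1.82, edgeR adjusted p = 0.35), and DESeq2 gave an adjusted p of 0.057.

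Myl9, the regulatory light chain of smooth muscle myosin, had 14, 7 and 76 reads in foamy and 91, 1 and 46 reads in non-foamy libraries. As in Tagln, non-foamy replicate 1, foamy replicate 3 and non-foamy replicate 3 were the 3 highest. Mean levels were 1.54 ± 1.85 CPM over the foamy and 2.58 ± 2.95 CPM over the non-foamy libraries (log2 fold change -0.40 ± 1.29 SE, 95% interval -3.24 to 2.45, adjusted p = 0.92 by edgeR). The log2 fold change was -2.08 without foamy replicate 3, and positive without foamy replicate 2 (0.083) or non-foamy replicate 1 (0.85).

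Mylk, the kinase that phosphorylates this light chain, had 1, 5 and 56 reads in foamy and 105, 48 and 79 reads in non-foamy libraries. In deposited CPM the foamy libraries were at 0.041, 0.269 and 2.71 and the non-foamy libraries at 6.72, 2.85 and 3.21. The lowest non-foamy library lay just above the highest foamy one on that scale, and the groups overlapped after TMM normalization. The means were 1.01 ± 1.48 CPM over foamy and 4.26 ± 2.14 CPM over non-foamy libraries. The log2 fold change of -1.77 (SE 1.18, 95% interval -4.36 to 0.82) did not pass the test (edgeR adjusted p = 0.49). Without foamy replicate 3 it was -4.51 (edgeR adjusted p = 0.11), and over all alternatives the adjusted p ran from 0.11 to 0.74.

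Tpm1, which encodes tropomyosin alpha in muscle and non-muscle forms, was the only member with at least 558 reads in every library. It had 1264, 1104 and 892 reads in foamy and 801, 741 and 558 reads in non-foamy libraries. In deposited CPM these were 52.1, 59.4 and 43.2 in foamy and 51.3, 43.9 and 22.7 in non-foamy libraries, which overlap. After TMM normalization the groups were apart, at 56.4 ± 7.33 CPM over foamy and 35.3 ± 11.7 CPM over non-foamy libraries. The log2 fold change was 0.68 (SE 0.29, 95% interval 0.043 to 1.31, unadjusted p = 0.038, edgeR adjusted p = 0.23), or 0.39 with total counts only and 0.44 without non-foamy replicate 3. The counts are per gene and do not tell the muscle from the non-muscle forms.

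Tpm2, tropomyosin beta, had 62, 59 and 38 reads in foamy and 50, 48 and 15 reads in non-foamy libraries. Non-foamy replicate 3 was the lowest for both tropomyosins, although it was among the 3 highest for Tagln, Myl9, Cald1, Mylk, Myh11 and Cnn1. The Tpm2 means were 2.52 ± 0.67 CPM over foamy and 2.22 ± 1.4 CPM over non-foamy libraries (log2 fold change 0.48 with an SE of 0.83, adjusted p = 0.83 by edgeR). Without non-foamy replicate 3 the log2 fold change was 0.057, and without non-foamy replicate 1 it was 0.78.

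**Figure D2:**
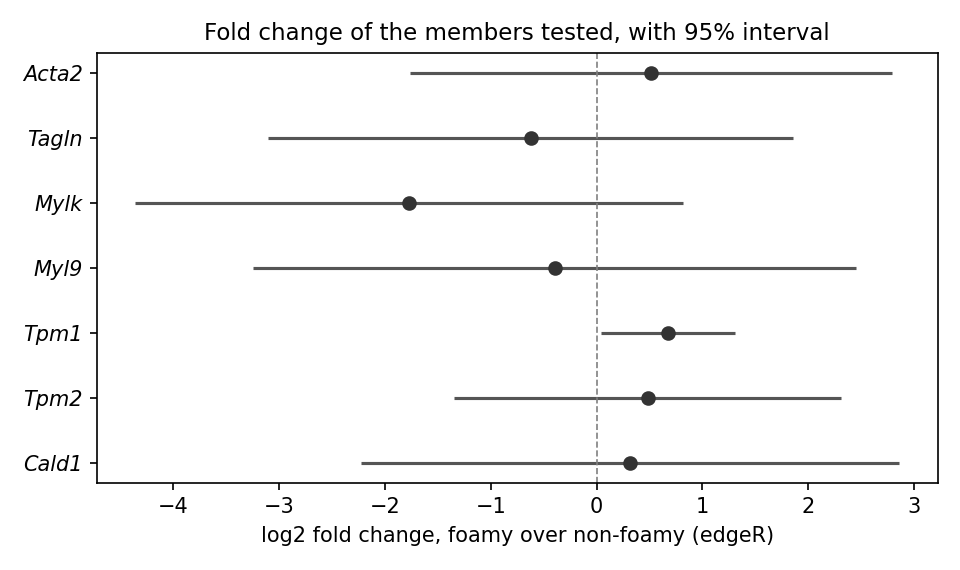
Log2 fold change, foamy over non-foamy (horizontal axis), of the 7 members tested with edgeR, with points for the estimate and lines for its 95% interval. The intervals of Acta2, Tagln, Mylk, Myl9, Tpm2 and Cald1 cross 0, and that of Tpm1 runs from 0.043 to 1.31 before any adjustment for the number of genes tested.

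Within a gate, Acta2 differed more between replicates than most genes did. The highest foamy library was 7.81 times the lowest for Acta2, and the highest non-foamy library 11.3 times the lowest, on TMM-normalized CPM + 0.5. The same ratios for Tagln were 13.1 in foamy and 3.66 in non-foamy libraries, and for Myl9 5.16 in foamy and 9.77 in non-foamy libraries. For Tpm1 they were 1.28 in foamy and 1.95 in non-foamy libraries. The medians over all genes tested were 1.60 in foamy and 1.86 in non-foamy libraries, or 1.94 in foamy and 2.40 in non-foamy libraries over the 5518 tested genes with a mean of 1 to 15 CPM. The gene-wise biological coefficient of variation estimated by edgeR was 0.85 for Acta2, 0.92 for Tagln and 1.04 for Myl9, against 0.27 for Tpm1 and a median of 0.41 over all genes tested.

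The members fell into different orders over the same 6 libraries. Tagln, Myl9 and Cald1 had foamy replicate 3, non-foamy replicate 1 and non-foamy replicate 3 as their 3 highest libraries, a pattern that was noticed in the values and that 4.52% of all genes tested share. Acta2 had the first 2 of these on top. In Cald1 the third place rested on few reads, with 8 in non-foamy replicate 1 (0.512 CPM) against 9 in foamy replicate 1 (0.371 CPM). Cnn1 was highest in foamy replicate 2 and Tpm1 likewise. Tpm1 made up 89.6%, 88.2% and 55.8% of the members' reads in the foamy libraries, and 55.2%, 83.3% and 57.9% in the non-foamy libraries. The 8 members other than Tpm1 summed to 6.05, 7.91 and 34.2 CPM over foamy and 41.5, 8.84 and 16.5 CPM over non-foamy libraries. All 9 together summed, in TMM-normalized CPM, to 74.1 ± 10.4 in foamy and 55.0 ± 20.9 in non-foamy libraries (SD, n = 3 each).

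**Figure D3:**
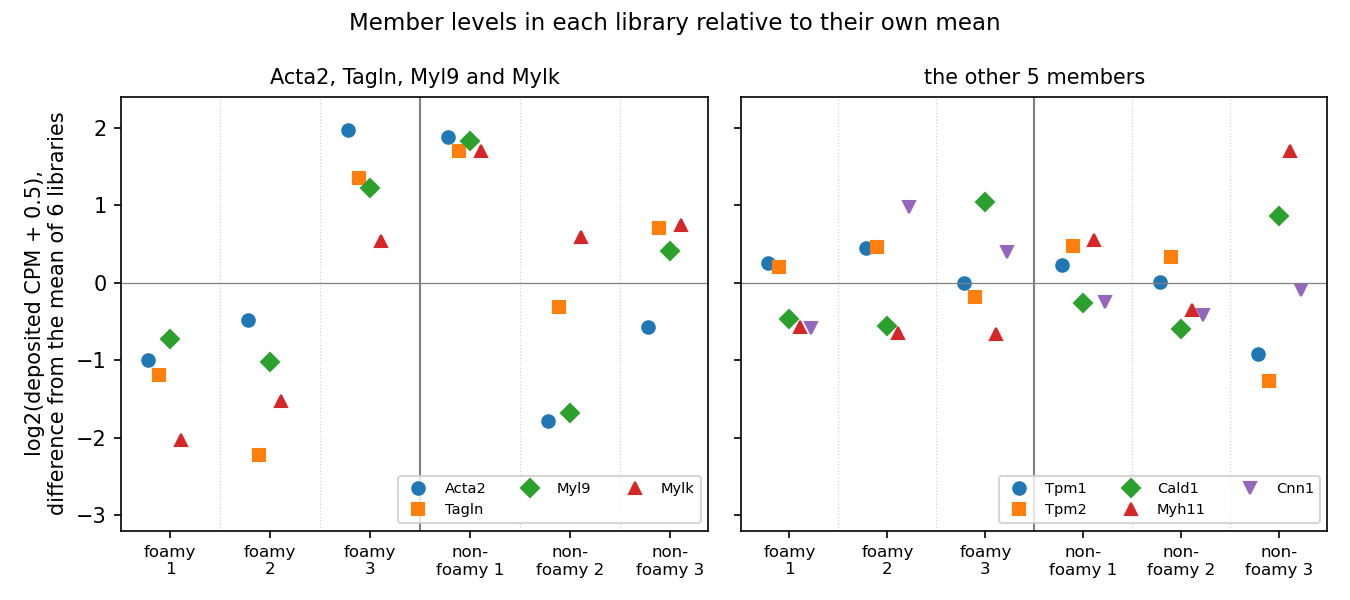
Each member's log2(deposited CPM + 0.5) in each library (3 foamy on the left and 3 non-foamy on the right of each panel) minus its mean over the 6 libraries, with Acta2, Tagln, Myl9 and Mylk in the left panel and the other 5 members in the right panel. Acta2, Tagln and Myl9 are high in foamy replicate 3 and non-foamy replicate 1, whereas Tpm1 and Tpm2 stay within a narrow band apart from a low value in non-foamy replicate 3.

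The proportions between members are given per library, as a description with counting intervals that leave out the spread between sorted samples. Myh11 had 1 read beside 345 of Acta2 in foamy replicate 3, or 0.289% of the pair (exact 95% interval 0.00732% to 1.60%). In non-foamy replicate 1 it had 12 beside 245, or 4.67% (2.44% to 8.01%), and in non-foamy replicate 3 it had 57 beside 60, or 48.7% (39.4% to 58.1%). Tagln made up 28.7% of its pair with Acta2 in foamy replicate 3 (24.7% to 33.0%) and 35.7% in non-foamy replicate 1 (30.9% to 40.7%), and 63.0% in non-foamy replicate 3 (55.0% to 70.4%). In foamy replicate 2 Tagln was at 3.92% of the pair (0.478% to 13.5%). Tpm2 made up 4.09% to 5.07% of the summed tropomyosin reads in foamy and 2.62% (1.47% to 4.28%) to 6.08% (4.52% to 7.99%) in non-foamy libraries.

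The genes nearest to the summed profile of Acta2, Myh11, Tagln and Cnn1 over the 6 libraries were found by the mean absolute difference between centred log2(CPM + 0.5) values. Among 10558 genes with a mean of at least 1 CPM, the nearest was Myl9, at 0.30, where the median gene was at 1.20. Mylk ranked 358, Tpm1 9007 and Tpm2 9597. After Myl9 came Serpina3n, a secreted protease inhibitor (0.34), C3, the central complement component (0.37), Zfp629, a zinc finger gene (0.38), Clu, the secreted chaperone clusterin (0.41), and Tm4sf1, a membrane protein abundant in endothelium (0.42). Col1a1, a chain of type I collagen, followed at 0.44, then Rap1gap2 (0.46), Josd1 (0.47) and Dnajc27 (0.50). Clu had 53, 20 and 403 reads in foamy and 268, 55 and 225 reads in non-foamy libraries. That the same 3 libraries were high follows from its choice by this profile. Acta2 and Tagln supply most of the reads in the summed profile, so it is mainly theirs.

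Per length, 5 members were far below a widely expressed gene of the same family in every library: Acta2 below Actb, Myh11 below Myh9, Tagln below Tagln2, Cnn1 below Cnn2 and Myl9 below Myl12a. Values are the deposited RPKM, which are CPM divided by the gene's exon length in kilobases. Actb, cytoplasmic beta-actin, was at 19760 ± 1551 RPKM in foamy and 25756 ± 2292 RPKM in non-foamy libraries, and exceeded Acta2 by a factor of 2119 to 54804 over the 6 libraries. Actg1, cytoplasmic gamma-actin, was by contrast listed at only 6 to 16 reads per library and below Acta2 in each. How reads that match several actin genes were treated is not given in the sources used here, and the counts of Acta2 and Actg1 are uncertain to that extent. Tagln2, the transgelin of non-muscle cells, was at 385 ± 16.6 RPKM in foamy and 447 ± 63.1 RPKM in non-foamy libraries, where Tagln was at 1.59 ± 2.31 RPKM in foamy and 3.07 ± 2.22 RPKM in non-foamy ones. Myh9, a non-muscle myosin heavy chain, stood at 19.2 ± 2.09 RPKM in foamy and 28.5 ± 11 RPKM in non-foamy libraries, where Myh11 did not exceed 0.349 RPKM in any library. Myl12a, a non-muscle regulatory light chain, was at 182 ± 7.23 RPKM in foamy and 176 ± 9.55 RPKM in non-foamy libraries, at least 33.1 times Myl9 in each library.

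**Figure D4:**
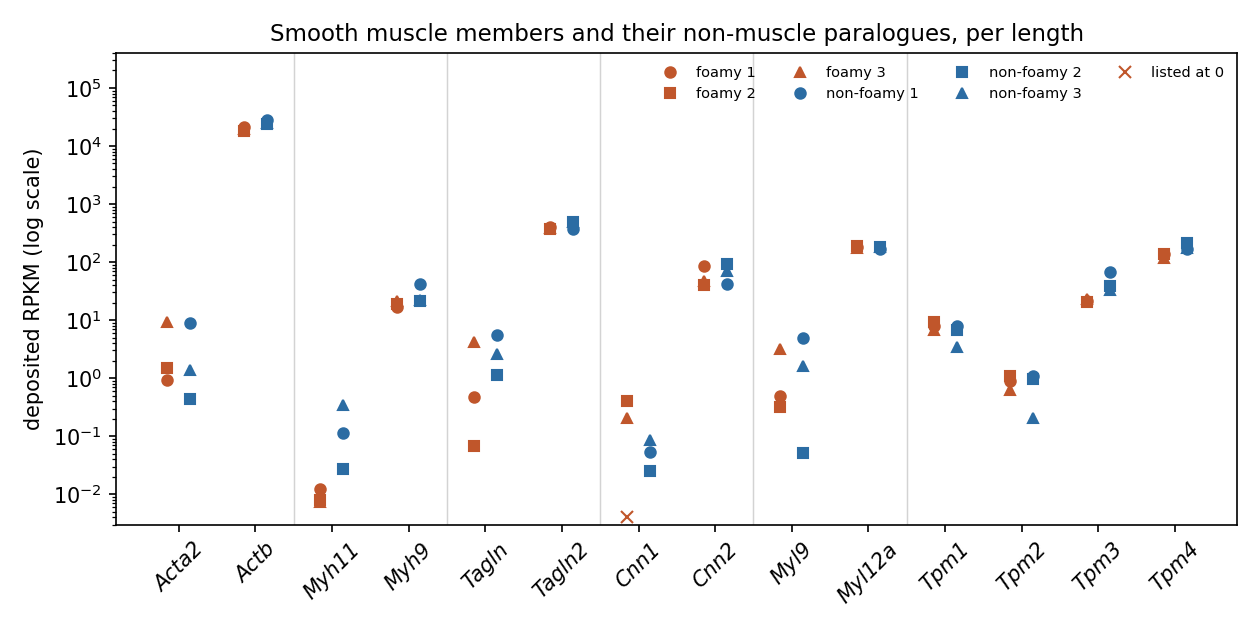
Deposited RPKM (vertical axis, log scale) of 7 members and of non-muscle genes of the same families in 3 foamy (orange, left) and 3 non-foamy (blue, right) libraries, with marker shape for the replicate number and a cross for a gene listed at 0. Actb lies at least 2119 times above Acta2 in each library, while Tpm4 lies 15.2 to 49.7 times above Tpm1.

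Among the members themselves, mean RPKM over the 6 libraries placed Tpm1 first (7.0, from 3.5 to 9.16), then Acta2 (3.74, from 0.433 to 9.38), Tagln (2.33, from 0.0678 to 5.49) and Myl9 (1.78, from 0.0510 to 5.01). Tpm2 (0.815), Mylk (0.259), Cnn1 (0.130), Cald1 (0.113) and Myh11 (0.0866) followed. The ranges of neighbouring members in this order overlap. The other widely expressed tropomyosin genes were higher than Tpm1: Tpm3 stood at 22.1 ± 1.34 RPKM in foamy and 46.4 ± 18.2 RPKM in non-foamy libraries, and Tpm4 at 131 ± 12.7 RPKM in foamy and 184 ± 23.3 RPKM in non-foamy libraries. Tpm3 missed the threshold (log2 fold change -0.78 with an SE of 0.23, adjusted p = 0.080 by edgeR).

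The rest of the contractile programme was read from 4 lists of 78 genes in all, of which 50 were tested with edgeR and 0 called. At an unadjusted p below 0.05 there were 12 of the 50, where the share of all genes tested was 18.7%. DESeq2 called 8 of the 59 for which it gave an adjusted p, where its share of all genes was 10.3%. Of 30 other smooth muscle contractile and identity genes, 12 were tested, with a median log2 fold change of -0.35 against -0.04 over all genes tested. The list's median was -0.80 without non-foamy replicate 3, and -1.06 without the filter on low counts, where that of all genes was -0.66. In the foamy libraries 19, 19 and 15 of these 30 had 3 reads or fewer, against 9, 15 and 14 in the non-foamy libraries. Over all 41388 genes, those with at least 1 read were also fewer in foamy (15595 to 17757) than in non-foamy libraries (19380 to 24701). The share of all genes at 3 reads or fewer is not given, so these counts are not a result about this list. Its members with the highest levels were Slmap, Pcp4l1 and Pdlim7, which are not restricted to muscle. Slmap averaged 71.3 ± 11.7 in foamy and 96.7 ± 3.33 in non-foamy libraries, in TMM-normalized units (log2 fold change -0.44 with an SE of 0.20, adjusted p = 0.28 by edgeR).

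Myocd, the gene of myocardin, had 3, 0 and 0 reads in foamy and 11, 7 and 3 reads in non-foamy libraries, too few to be tested. Srf, serum response factor, averaged 3.73 ± 1.35 CPM over foamy and 4.67 ± 3.31 CPM over non-foamy libraries (TMM-normalized, log2 fold change -0.32 with an SE of 0.76, adjusted p = 0.89 by edgeR). The actin, SRF and myocardin control list had 11 of 16 genes tested and a median of -0.03, and its most abundant members were Cfl1, Pfn1 and Rhoa. The myosin light chain kinase and phosphatase control list had 9 of 12 tested and a median of -0.17. The non-muscle paralogue list had 18 of 20 tested and a median of 0.04. Several genes of these lists lay close to the threshold and were called under some alternatives. Actn1 and Actn4, non-muscle alpha-actinins, had log2 fold changes of 0.88 (SE 0.24, edgeR adjusted p = 0.055) and 0.82 (SE 0.23, edgeR adjusted p = 0.065). Mrtfb, a myocardin-related co-activator of SRF, was at 1.09 (SE 0.32, edgeR adjusted p = 0.077), and Klf4, a repressor of smooth muscle genes that macrophages also express, was at -0.98 (SE 0.28, edgeR adjusted p = 0.073).

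Genes listed as fibroblast and adventitial markers were, in sum, high in the same libraries as several members. The 14 markers summed to 5.97, 3.33 and 156 CPM in the foamy libraries, and to 156, 20.3 and 329 CPM in the non-foamy libraries. Their 3 highest libraries were those of Tagln and Myl9. Single genes carried much of these sums. Lum alone was at 118 CPM in foamy replicate 3 and 84.1 CPM in non-foamy replicate 1, and Dcn at 274 CPM in non-foamy replicate 3. Lum, a collagen-binding proteoglycan, had 80, 20 and 2439 reads in foamy and 1314, 42 and 603 reads in non-foamy libraries. Dcn, decorin, had 17, 9 and 439 reads in foamy and 738, 76 and 6747 in non-foamy libraries, and Col1a2 had 3, 5 and 165 in foamy and 59, 8 and 363 in non-foamy libraries. Of these 14 genes, 7, 2 and 4 were at 0 in the foamy libraries and 1 was at 0 in each non-foamy library, and 2 of them, Clec3b and Eln, were at 0 in all foamy libraries. Over all genes, too, each foamy library had fewer genes with a read than each non-foamy one. Which cells the reads of these markers came from was not tested, nor was the part of fibroblasts in the levels of Acta2, Tagln and Myl9. Of the 7 fibroblast genes tested 1 was called, Serpinf1, lower in foamy libraries (log2 fold change -5.31 with an SE of 1.19, adjusted p = 0.026 by edgeR). No gene of the list was called without foamy replicate 1, 2 or 3 or without non-foamy replicate 2 or 3.

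**Figure D5:**
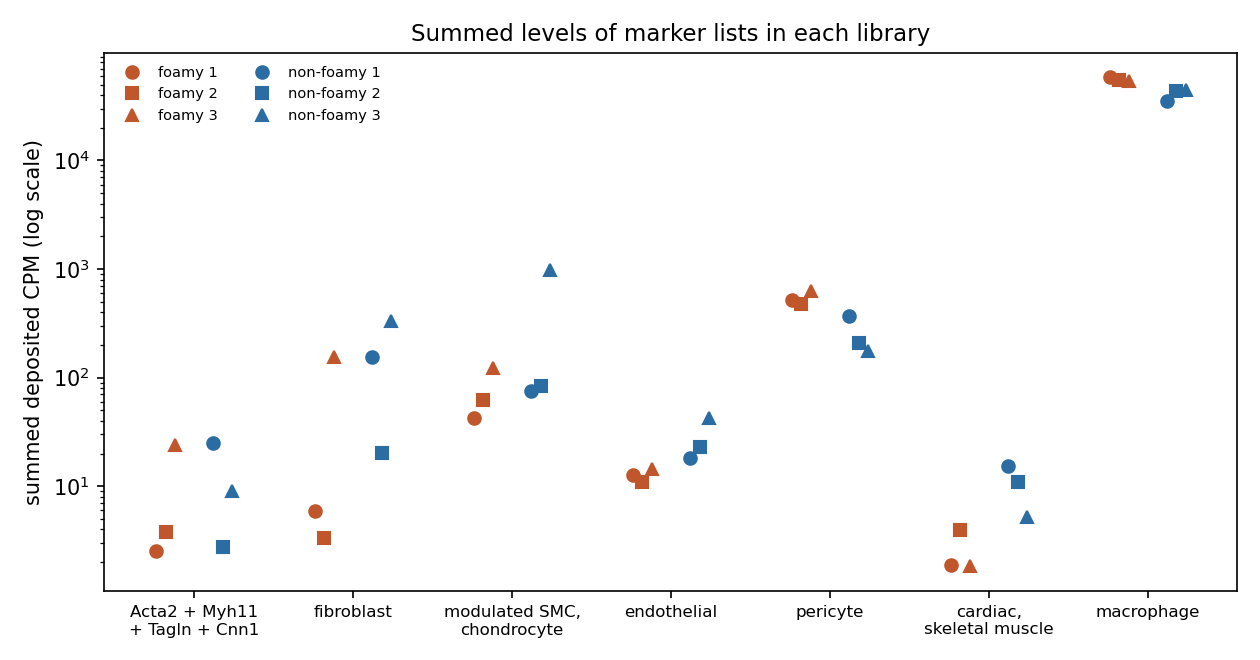
Summed deposited CPM (vertical axis, log scale) of Acta2, Myh11, Tagln and Cnn1 and of 6 marker lists in 3 foamy (orange, left) and 3 non-foamy (blue, right) libraries, with marker shape for the replicate number. The fibroblast sums are highest in foamy replicate 3 (156 CPM) and in non-foamy replicates 1 (156 CPM) and 3 (329 CPM), which are also the libraries with the 3 highest sums of the 4 smooth muscle genes.

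The sum of Acta2, Myh11, Tagln and Cnn1 was 2.51, 3.76 and 24.0 CPM over foamy and 25.3, 2.79 and 9.10 CPM over non-foamy libraries. The list of modulated smooth muscle and chondrocyte-type markers summed to 42.3, 61.9 and 123 CPM over foamy and 75.7, 83.1 and 973 CPM over non-foamy libraries, and 0 of 5 tested were called. Ibsp alone made up 720 CPM of the sum in non-foamy replicate 3. In every other library the highest gene of that list was Vcam1, at 21.8 to 49.7 CPM. Endothelial markers summed to 10.9 to 14.3 CPM over foamy and 18.3 to 42.9 CPM over non-foamy libraries, with 0 of 4 tested called. The highest endothelial sum, that of non-foamy replicate 3, held 26.3 CPM of Cytl1 alone. Pericyte markers summed to 478 to 625 CPM over foamy and 174 to 373 CPM over non-foamy libraries, nearly all of it Anpep, a peptidase that myeloid cells express too and the 1 called of 3 tested (log2 fold change 1.51 with an SE of 0.25, adjusted p = 0.0054 by edgeR). Cardiac and skeletal muscle markers summed to 1.84 to 3.93 CPM over foamy and 5.20 to 15.4 CPM over non-foamy libraries, with 0 of 4 tested called. The T and B cell list had 1 of 3 tested higher in foamy libraries (Cd4), the neutrophil list 1 higher (Mmp8) and 1 lower (S100a9) of 4, the adipocyte list none tested, and the macrophage list 3 higher and 4 lower of 10. Leaving out 1 library removed the T and B cell call (foamy replicate 2, replicate 3 of the same gate, or replicate 1 of the non-foamy gate left out) and the lower neutrophil call (non-foamy replicate 2 left out), and left 1 to 4 macrophage markers called lower.

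On GRCm38, in the deposited coordinates, Acta2 (ENSMUSG00000035783) lies on chromosome 19 from 34241090 to 34255336 on the minus strand, and Myh11 (ENSMUSG00000018830) on chromosome 16 from 14194527 to 14291408 on the minus strand. Tagln (ENSMUSG00000032085) lies on chromosome 9 from 45929628 to 45936058, Cnn1 (ENSMUSG00000001349) on chromosome 9 from 22099281 to 22109630, and Tpm1 (ENSMUSG00000032366) on chromosome 9 from 67022590 to 67049406. Mylk (ENSMUSG00000022836) lies on chromosome 16 from 34745210 to 35002420, Myl9 (ENSMUSG00000067818) on chromosome 2 from 156775420 to 156781658, Tpm2 (ENSMUSG00000028464) on chromosome 4 from 43514711 to 43523765, and Cald1 (ENSMUSG00000029761) on chromosome 6 from 34598500 to 34775473. All encode proteins, and each count pools a gene's exons. In GENCODE M21, Tagln overlaps the last 99 bases of Pcsk7 on the opposite strand and an antisense gene, and Mylk and Cald1 each overlap 3 noncoding genes on the opposite strand. Strandedness of the counting is not given in the sources used here, and reads from the overlapping stretches could belong to either gene. Pcsk7 had 84, 164 and 134 reads in foamy and 99, 92 and 111 reads in non-foamy libraries, without the high and low libraries of Tagln. The partners of Mylk and Cald1 found in the tables had 0 to 2 reads in each library.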

How the data were processed

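Bulk RNA-seq was made from sorted cells lysed directly, with SMARTer Ultra Low cDNA, 12 amplification cycles and single 50-base reads, per the labels' protocols. STAR 2.0.4b, Subread, featureCounts 1.4.5 and GRCm38 are named in the submitters' processing notes. The deposited counts are whole reads per gene. The deposited CPM equal the count per 1e+06 counted reads, and the deposited RPKM equal that CPM per kilobase, both checked on all 41388 genes to a tolerance of 1e-06. Symbols were matched for 97.3% of IDs.

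Counts were tested with edgeR 4.0.16 in R 4.3.3 (filterByExpr, TMM, robust quasi-likelihood F-test, Benjamini-Hochberg adjustment over 11303 genes). TMM factors were 0.869 to 0.967 for foamy and 1.03 to 1.18 for non-foamy libraries. Shares have exact binomial intervals (scipy 1.17.1). The procedure was tested on simulated data. Alternatives were RLE factors, total counts only, DESeq2 1.42.0, dropping the filter, a stricter one (mean of 5 CPM, with 10 counts in 3 libraries), a replicate block, and each library left out. The members and gene lists were chosen with earlier results of these data known. Named genes were all members, the called and up to 3 most abundant genes of each list that bore on a result, and the 10 nearest profiles; others were chosen after their values were seen. The most abundant genes of the myosin light chain kinase and phosphatase control list are not reported here. The deposited files name no batch, and none was used.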

Additional observations from a re-analysis of the deposited data

How the results depend on the processing

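No member was called under any of the 12 alternatives, with 2 to 9 members tested, and of 85 refitted fold changes of single members 79 kept their sign. With the replicate block the sign turned for Myl9 (0.28), and the log2 fold change was -2.00 for Tagln, -3.05 for Mylk and 1.00 for Acta2. With 1 library left out, the log2 fold change ran from -2.08 to 0.85 for Myl9, from -1.21 to 2.31 for Acta2 and from -0.081 to 0.73 for Cald1; the cause was not tested. The log2 ratio of the summed members, 0.43, ran from 0.13 with total counts only to 0.77 without non-foamy replicate 1. With total counts only, the median of all genes tested moved to -0.31, against -0.04 with TMM, and 165 genes were called higher and 614 lower in foamy libraries, against 283 and 328. The number of all genes called was 611, against 391 with the replicate block, 1419 with DESeq2 and 271 to 579 with 1 library left out. The median of the other smooth muscle genes was -0.61 with total counts only, -1.19 with DESeq2 (all genes -0.80) and -0.80 to -0.30 with 1 library left out. Other genes of the programme called numbered 0, against 3 with total counts only, 7 without a filter, 4 with the stricter filter, 8 with DESeq2 and 0 to 2 with 1 library left out. The deviations of same-numbered libraries from their group means correlated at -0.10, -0.03 and -0.04 over genes. Over all pairs across the gates they ran from -0.10 to 0.082. The highest was foamy replicate 3 with non-foamy replicate 1, then foamy replicate 1 with non-foamy replicate 2 (0.076). The labels do not say that equal numbers mark a pair, so the numbers were not taken to pair the libraries. Deviations from a group mean balance out within a gate, and correlations this low cannot say which libraries shared a mouse. At 3 reads or fewer in 3 of 6 libraries, Cnn1 is limited by depth, as is Myh11.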

Other observations

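The further smooth muscle and mural cell genes given here were chosen for mention after their values were seen, the first 3 because 1 or 2 libraries held most of their reads. Rgs5, a G protein regulator of pericytes and smooth muscle, had 0, 1 and 102 reads in foamy and 1, 1 and 113 reads in non-foamy replicates 1 to 3, so that replicate 3 of each gate held nearly all of them. Kcnmb1, the beta subunit of the smooth muscle calcium-activated potassium channel, had 0, 0 and 6 reads in foamy and 76, 1 and 3 reads in non-foamy libraries. Fhl1, a LIM domain gene of muscle, had 7, 5 and 19 reads in foamy and 173, 2 and 7 reads in non-foamy libraries. Prkg1, the cGMP-dependent kinase through which nitric oxide relaxes smooth muscle, showed another arrangement, with 0, 8 and 2 reads in foamy and 59, 22 and 66 reads in non-foamy libraries. Its log2 fold change was -3.64 (SE 1.29) with an edgeR adjusted p = 0.15, and DESeq2 gave an adjusted p of 0.012. Filip1l, a filamin A interacting protein, had TMM-normalized means of 14.3 ± 4.49 CPM over foamy and 34.8 ± 10.3 CPM over non-foamy libraries (SD, n = 3 each), with a log2 fold change of -1.29 (SE 0.34, edgeR adjusted p = 0.053). Mrvi1, a target of that kinase, had 1, 0 and 0 reads in foamy and 42, 88 and 11 reads in non-foamy libraries, too few for the edgeR filter, with a DESeq2 adjusted p of 0.00030. Other genes had fold changes in the opposite direction that did not pass the test. Csrp1, a LIM domain gene of smooth muscle, had 792, 553 and 591 reads in foamy and 53, 274 and 492 reads in non-foamy libraries. Its log2 fold change was 1.42 (SE 0.53) with an edgeR adjusted p = 0.17, or 0.0037 without the filter on low counts, and 0.090 by DESeq2. The log2 fold changes of Pcp4l1 and Tgfb1i1 were 0.71 (SE 0.32, edgeR adjusted p = 0.26) and 0.74 (SE 1.12, edgeR adjusted p = 0.81).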
